A study of Homo sapiens with 8 samples.

Results

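The high-background segments are a pair of chromosome stretches, one on chromosome 9 and one on chromosome 13, in which the control signal under CHD4 peaks of SCC9 cells stood above that of most of the genome. The assay was ChIP-seq, in which DNA bound to CHD4 is pulled down with an antibody and sequenced, and the authors deposited 1 peak list for each of 6 libraries. Peaks of these lists that shared at least 1 bp were joined, which gave 18808 regions. A region was a member if it started between 35 and 40 Mb of chromosome 9 or between 60 and 80 Mb of chromosome 13, in hg19 coordinates. These limits gave 375 members, or 1.99% of all regions, with 129 on chromosome 9 and 246 on chromosome 13. The remaining 18433 regions are called the rest of the genome. The segments were chosen on the control background that the fold enrichment and the p-value of these same peaks imply, so the background values below describe the choice and are not tested.

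SCC9 is a long-established cell line from a squamous carcinoma of the tongue. Cells with DOC1 (labelled DOC1, 3 CHD4 libraries) were set against cells without it (labelled lacZ, 3 CHD4 libraries). Both groups were grown in the same medium with serum and hydrocortisone, and the labels name no vector, clone or passage. The design asked how binding of the complex that holds CHD4 depends on DOC1. Each group also had 1 IgG library, not analysed here as a sample of its own. The labels do not tie the numbered libraries to separate cultures, so p-values here measure the spread between libraries, which may be technical.

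CHD4 is the ATP-driven motor of NuRD, the nucleosome remodelling and deacetylase complex, which slides nucleosomes and removes acetyl groups from histones. DOC1 (CDK2AP1) also belongs to NuRD, as one of its smaller subunits, and its loss is known from oral squamous carcinoma. A peak caller such as MACS2 judges a pile of ChIP reads against a local background taken from a control library. Where the control itself is dense, a site needs many more reads to be listed, and its fold enrichment is lower for the same number of reads. The source of the dense control in the segments was not tested.

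Values of numbered libraries are given in the order 1, 2, 3. The 6 lists held 7834, 3448 and 11032 peaks in DOC1 1 to 3, and 7027, 2812 and 4723 peaks in lacZ 1 to 3. For 36873 of the 36876 peaks, the fold and the p-value gave 1 solution for the whole number of reads at the summit and the control background there. No unsolved peak lay in the segments. Background is given below as a ratio to the lowest recurring background of the same list, which the peak caller sets from the genome-wide control average (the floor). This floor corresponded to 57.8 control reads per 10 kb in DOC1 3 and to 44.1 in each of the 3 lacZ lists. For DOC1 1 and DOC1 2 the floor in control reads was taken from DOC1 3, so its equality there was assumed. With it, their backgrounds above the floor came to whole control reads for 100% of peaks. The libraries of a group may thus have shared the size of their control, and perhaps the control itself. Background values within a group are therefore not counted as replicates. The local background is the highest of several windows around a peak, so it lies above the mean control density of the stretch. Depth differed between lists: a read at a summit was scaled by 1, 1 and 0.562 in DOC1 1 to 3 and by 0.476, 0.671 and 0.809 in lacZ 1 to 3. Read numbers were for this reason compared only inside against outside the segments of the same library.

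High background filled only part of each segment. Along chromosome 9 the median background over all peaks of a 1 Mb window was 2.53 times the floor at 33 to 34 Mb, 8.65 at 34 to 35 Mb, 20.6 at 35 to 36 Mb and 17.2 at 36 to 37 Mb, and then 1.00 from 37 to 39 Mb. The block therefore began below the 35 Mb limit. Its lower step lay between the region chr9:34252920-34253186, at 3.95 times the floor, and chr9:34325271-34326005, at 12.7. Its upper step lay between the last region above 5 times the floor, which ended at 36664385, and chr9:37215019-37215295, at 1.45. No list had a peak on chromosome 9 between the member at 38672521 and the region at 66458112. On chromosome 13 the medians stayed between 1.28 and 2.25 times the floor in each window from 60 to 73 Mb. They were 4.71 at 73 to 74 Mb, 11.5 at 74 to 75 Mb, 13.1 at 75 to 76 Mb, 9.30 at 76 to 77 Mb and 5.88 at 77 to 78 Mb. The upper step lay between chr13:78081981-78082287, at 5.99, and chr13:78676295-78676539, at 1.00. The name of the segments thus held for the first part of the chromosome 9 stretch and for the last part of the chromosome 13 stretch.

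**Figure D1:**
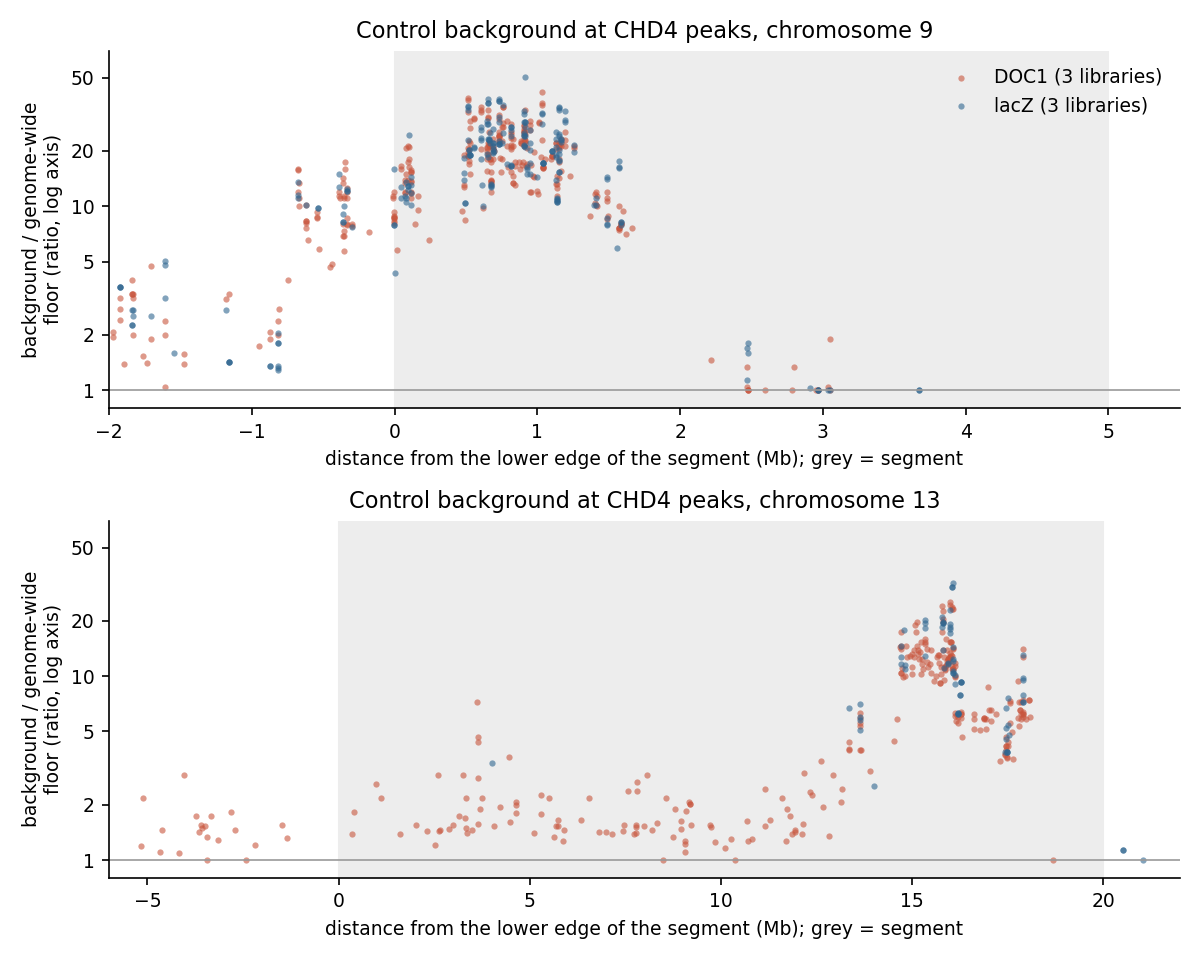
Control background at each CHD4 peak (ratio to the genome-wide floor, log axis) against the distance from the lower edge of the segment (Mb), on chromosome 9 above and chromosome 13 below. Points are peaks of the 3 DOC1 and the 3 lacZ libraries, and the grey area is the segment. The chromosome 9 block starts left of the grey area and ends before 2 Mb into it, and the chromosome 13 block lies in the last part of the grey area.

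Of the members, 115 of the 129 on chromosome 9 (89.1%) and 123 of the 246 on chromosome 13 (50%) had a median background of at least 5 times the floor, against 256 of the 18433 regions in the rest of the genome (1.39%). The chromosome 9 segment held 23.3% of all 494 such regions and the chromosome 13 segment 24.9%. The chromosome 13 count rested on DOC1 2: without that library it was 37, or 9.59% of 386 such regions, against 90, or 23.3%, on chromosome 9. Outside the segments, chromosome 17 had 88 of them, and 28 more lay on chromosome 9. Most of these 28 lay between 34325271 and 34996065, in the part of the block below the 35 Mb limit, and count here as rest of the genome. The high members on chromosome 9 spanned 5.81 to 34.9 times the floor with a median of 16.6, and those on chromosome 13 spanned 5.09 to 27.0 with a median of 11.1. The 14 low members on chromosome 9 had a median of 1.01, and the 123 low members on chromosome 13 had a median of 1.66.

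Ranked over the genome in 5 Mb windows with at least 20 peaks (439 windows), 35 to 40 Mb of chromosome 9 came first with a median of 18.8 times the floor. The window from 75 to 80 Mb of chromosome 13 came second with 10.4. Next came 30 to 35 Mb of chromosome 9 with 6.92, just outside the limits of the segment, and 2 windows of chromosome 1 with 5.09 and 4.14. The window from 70 to 75 Mb of chromosome 13 was 6th with 3.99, next to a window of chromosome 17 with 3.98. These medians pool the libraries, and below the second place the order differed by group. The window from 30 to 35 Mb of chromosome 9 had 7.61 in DOC1 and 3.63 in lacZ, and the windows of chromosome 1 had 4.01 and 3.48 in DOC1 and 6.86 and 5.88 in lacZ. The window from 70 to 75 Mb of chromosome 13 had 3.04 in DOC1 and 8.96 in lacZ. These medians depend on where in a window each group had peaks. At 34 to 35 Mb of chromosome 9 the median was 8.65 over 58 DOC1 peaks and 9.03 over 27 lacZ peaks. At 33 to 34 Mb it was 2.37 in DOC1 and 2.72 in lacZ. From 70 to 73 Mb of chromosome 13 only DOC1 lists had peaks. At 73 to 74 Mb the medians were 3.98 and 5.88, and at 74 to 75 Mb 11.2 and 12.1, in DOC1 and lacZ. Single peaks with a higher background existed elsewhere: the highest ratio was 320.6 in DOC1 1 and 65.4 in DOC1 2 in the rest of the genome, against 35.5 and 38.5 in the chromosome 9 segment. In the other 4 lists the highest background lay in the chromosome 9 segment, at 41.9 in DOC1 3 and at 37.1, 37.3 and 50.2 in lacZ 1 to 3.

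**Figure D2:**
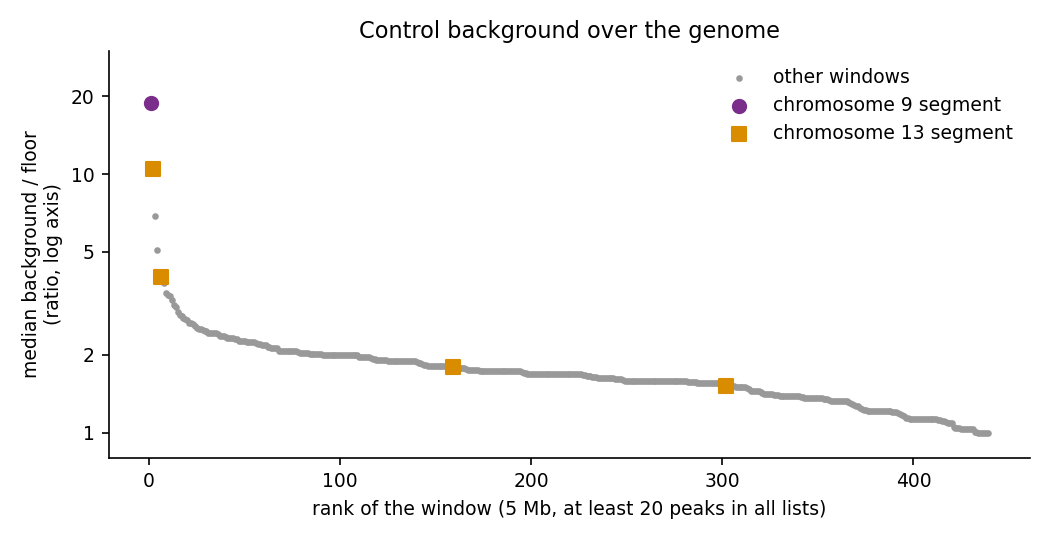
Median control background (ratio to the floor, log axis) of 439 windows of 5 Mb, ordered by rank. The chromosome 9 window is first at 18.8 and the best chromosome 13 window second at 10.4, while the 2 windows that cover 60 to 70 Mb of chromosome 13 lie among the bulk of the genome.

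Control background was high in both groups. In the chromosome 9 segment the median over peaks was 18.8, 18.2 and 18.0 times the floor in DOC1 1 to 3 and 17.7, 20.6 and 19.3 in lacZ 1 to 3. In the rest of the genome it was 1.73, 1.45 and 2.00 in the DOC1 lists and 1.69, 1.91 and 2.01 in the lacZ lists. The median of the segment was 10.9, 12.5 and 9 times that of the rest in the DOC1 lists and 10.5, 10.75 and 9.61 times in the lacZ lists, with overlapping values. In the chromosome 13 segment the medians were 6.75, 4.36 and 6.77 in DOC1 1 to 3, all below the 9.53, 11.5 and 10.7 of lacZ 1 to 3. They were 3.905, 3.00 and 3.39 times those of the rest in the DOC1 lists and 5.65, 6.00 and 5.36 times in the lacZ lists. Medians over peaks also depend on which peaks were listed. Peaks of at least 5 times the floor were 71.1%, 47.2% and 66.7% of the chromosome 13 peaks in DOC1 1 to 3. In lacZ 1 to 3 they were 87.5%, 92.3% and 86.4%. The part of this mix in the order of the medians was not tested. Among peaks with a background of at least 5 times the floor, the chromosome 13 medians were 10.4, 11.1 and 11.4 in the DOC1 lists and 10.4, 11.96 and 11.6 in the lacZ lists, and the groups overlapped. That cut is on the compared value itself, which can bring the medians together, so it does not settle the order. Regions with peaks in both groups gave a comparison at the same place. Over 65 such members on chromosome 9 the median log2 ratio of the backgrounds, DOC1 over lacZ, was 0.00, and 33 were lower in DOC1. Over 24 on chromosome 13 it was -0.14, with 16 lower in DOC1, and over 5141 in the rest of the genome it was 0.04.

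The peak caller compares the control over the summit, over 1 kb and over 10 kb, and takes the highest. For peaks of at least 5 times the floor in the rest of the genome, the narrow window at the summit decided in 84.9 to 93.1% of peaks per list, and the 10 kb window in at most 1.28%. In the segments the summit window decided in 53.97 to 74.1% of such peaks on chromosome 9 and in 42.9 to 59.3% on chromosome 13. There the 10 kb window decided in 3.45 to 11.1% on chromosome 9 and in 3.57 to 21.1% on chromosome 13. The sets were not matched in background. Under this cut its median per list was 5.02 to 6.70 times the floor in the rest of the genome. It was 18.5 to 21.1 on chromosome 9 and 10.4 to 11.96 on chromosome 13. Where the 10 kb window decided in the chromosome 9 segment, at 2 to 7 peaks per list, it held a median of 810.5, 649.5 and 762 control reads per 10 kb in DOC1 1 to 3 and of 610.5, 615.5 and 678 in lacZ 1 to 3. The same medians in the rest of the genome were 82, 77 and 82 in the DOC1 lists and 62, 61 and 61 in the lacZ lists. At these peaks of the chromosome 9 segment the mean control density over 10 kb was above that of the narrower windows. How the control reads lay within the 10 kb is not known.

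Peaks of the segments had more reads and a lower fold than other peaks of the same library. On chromosome 9 the median number of reads at the summit was 57, 66 and 132 in DOC1 1 to 3 and 138, 102 and 75 in lacZ 1 to 3. In the rest of the genome it was 15, 15 and 34 in the DOC1 lists and 37, 26 and 21 in the lacZ lists, so the segment was higher in 6 of 6 lists, by 3.57 to 4.40 times. On chromosome 13 the summits held a median of 31.5, 24 and 76 reads in the DOC1 lists and of 93.5, 69 and 50 in the lacZ lists, again above the rest in 6 of 6. Median fold on chromosome 9 was 3.79, 2.93 and 2.98 in the DOC1 lists and 3.11, 3.19 and 3.23 in the lacZ lists. Median fold in the rest of the genome was 5.82, 5.25 and 5.12 in the DOC1 lists and 5.68, 6.20 and 6.29 in the lacZ lists. Median fold on chromosome 13 was 4.38, 4.03 and 3.89 in DOC1 1 to 3 and 3.57, 3.77 and 3.74 in lacZ 1 to 3. Fold was thus lower than in the rest of the genome in both segments and in 6 of 6 lists. Peaks of the rest of the genome with a background of at least 5 times the floor had a low fold too. Their medians were 3.92, 3.32 and 3.30 in DOC1 1 to 3 and 3.69, 4.15 and 4.08 in lacZ 1 to 3. Their median reads were 27 to 62. Their median background, 5.02 to 6.70 times the floor, lay below that of the segments under the same cut. The same cut gave 3.95, 3.14 and 3.31 (DOC1) and 3.48, 3.73 and 3.50 (lacZ) on chromosome 13. On chromosome 9 it gave 3.76, 2.78 and 2.91 (DOC1) and 3.03, 3.17 and 3.13 (lacZ). Median peak width on chromosome 9 was 433, 339 and 575 bp in the DOC1 lists and 553, 423 and 426 bp in the lacZ lists. These contrasts rest on the columns that chose the segments and carry no test.

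**Figure D3:**
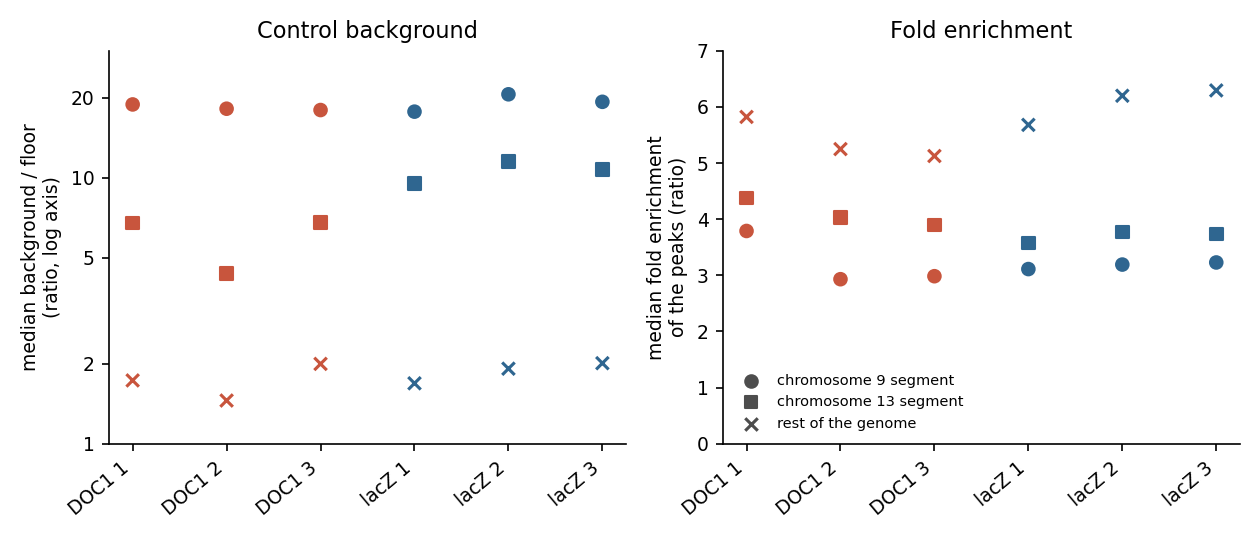
Median control background (left, ratio to the floor, log axis) and median fold enrichment (right, ratio) per library, for peaks of the chromosome 9 segment (circles), the chromosome 13 segment (squares) and the rest of the genome (crosses). In each of the 6 libraries both segments lie above the rest in background and below it in fold.

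The fold inside the segments, relative to the same list outside, was also set side by side for the groups. It comes from a column that chose the segments, so the values are a description with no test. Fold also holds the control, which lists of a group may share, so the SDs below may not measure independent spread. The chromosome 13 log2 ratio of median fold, inside over outside, was -0.41, -0.38 and -0.40 in DOC1 1 to 3 and -0.67, -0.72 and -0.75 in lacZ 1 to 3. Each DOC1 list lay above each lacZ list. The means were -0.40 ± 0.015 in DOC1 and -0.71 ± 0.042 in lacZ (SD, n = 3 each), a difference of 0.32 on the log2 scale. On chromosome 9 the ratio was -0.62, -0.84 and -0.78 in the DOC1 lists and -0.87, -0.96 and -0.96 in the lacZ lists, again with no overlap. The means were -0.75 ± 0.11 in DOC1 and -0.93 ± 0.053 in lacZ (SD, n = 3 each), a difference of 0.18. Both differences shrank, and the groups overlapped, in lists of equal length, to 0.15 on chromosome 13 and 0.10 on chromosome 9. With peaks of at least 5 times the floor only, the chromosome 13 difference was 0.12. Without DOC1 1 the chromosome 9 difference was 0.12. Fold is read against the control, and the chromosome 13 medians of background were lower in the DOC1 lists. Over the 24 chromosome 13 regions with peaks in both groups the median log2 ratio of background, DOC1 over lacZ, was -0.14. The mix of peaks differed too: 47.2 to 71.1% of the DOC1 peaks there had at least 5 times the floor, against 86.4 to 92.3% in lacZ. The part of background or mix in the difference was not tested.

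Reads at the summit, solved from the same columns and likewise not tested, gave no common direction. For chromosome 13, the log2 ratio of median reads, inside over outside, was 1.07, 0.68 and 1.16 in DOC1 1 to 3 and 1.34, 1.41 and 1.25 in lacZ 1 to 3. The difference of means was -0.36, with no overlap. It was -0.22 without DOC1 2, and 0.10 when only peaks with a background of at least 5 times the floor were taken inside. On chromosome 9 the ratios were 1.93, 2.14 and 1.96 in the DOC1 lists and 1.90, 1.97 and 1.84 in the lacZ lists. There the groups overlapped, with a difference of 0.10.

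The share of CHD4 peaks in the chromosome 9 segment did not differ between the groups beyond the spread of the libraries. Shares count peaks by position and use the columns that chose the segments only through which peaks were listed. Listing depends on background and depth, so the shares are not independent of that choice. Shares were tested, although with 3 lists against 3 the smallest two-sided p that the 20 assignments allow is 0.1. The segment held 83, 61 and 93 peaks in DOC1 1 to 3, or 1.06%, 1.77% and 0.843% of each list. It held 67, 42 and 67 peaks in lacZ 1 to 3, or 0.953%, 1.49% and 1.42%. The means were 1.22 ± 0.484% in DOC1 and 1.29 ± 0.293% in lacZ (SD, n = 3 each). Their difference of -0.0647 percentage points was smaller than either SD (exact permutation p = 0.9, also 0.9 after Benjamini-Hochberg adjustment). Its sign turned without DOC1 1, DOC1 3, lacZ 2 or lacZ 3 and in lists of equal length, where it was 0.45 points with no overlap (exact permutation p = 0.1).

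On chromosome 13 DOC1 2 stood apart from the other 5 lists. The segment held 38, 193 and 42 peaks in DOC1 1 to 3, or 0.485%, 5.60% and 0.381% of each list. It held 32, 13 and 22 peaks in lacZ 1 to 3, or 0.455%, 0.462% and 0.466%. The means were 2.15 ± 2.98% in DOC1 and 0.461 ± 0.0053% in lacZ (SD, n = 3 each), a difference of 1.69 percentage points, under the SD among DOC1 lists (exact permutation p = 0.7, adjusted 0.84). Without DOC1 2 the difference was -0.028 points, so the higher mean with DOC1 came from that library alone. With all lists shortened to 2812 peaks it was 2.00 points, and each DOC1 list lay above each lacZ list (exact permutation p = 0.1).

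**Figure D4:**
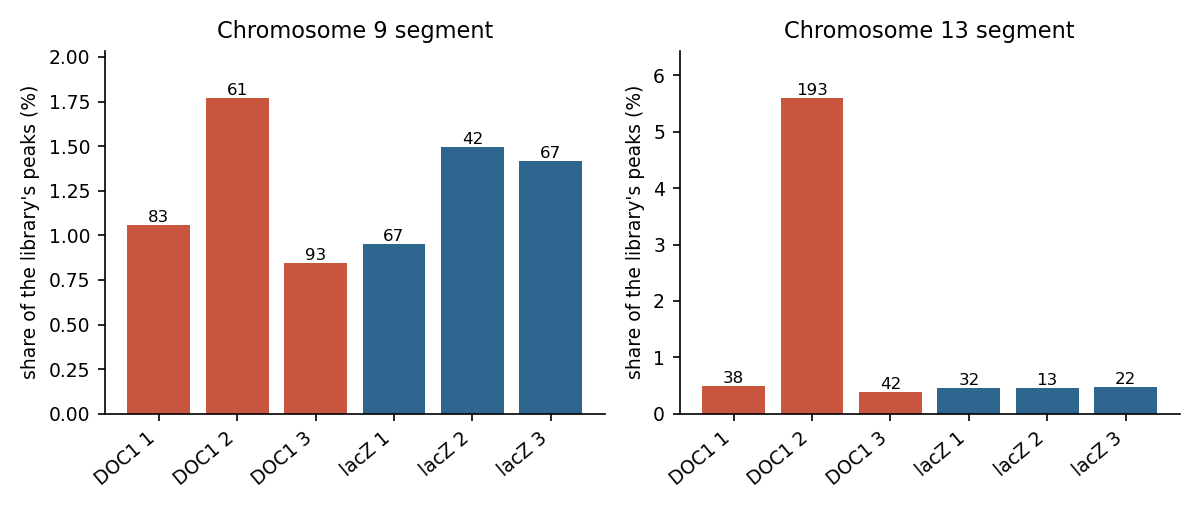
Share of each library's peaks (%) that lies in the chromosome 9 segment (left) and in the chromosome 13 segment (right), with the number of peaks above each bar. DOC1 2 has 193 peaks, or 5.60% of its list, in the chromosome 13 segment, and the other 5 libraries lie between 0.381% and 0.485%.

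The extra DOC1 2 peaks lay in both parts of the chromosome 13 segment. From 60 to 74 Mb, where the background was low, DOC1 2 had 98 peaks, of which 97 met no peak of another library. DOC1 1 and DOC1 3 had 8 and 10 peaks there, and lacZ 1 to 3 had 4, 1 and 2. These 98 peaks had a median of 15 reads at the summit, a median fold of 5.23 and a median background of 1.56 times the floor. That is close to the medians of DOC1 2 in the rest of the genome, with 15 reads, a fold of 5.25 and a background of 1.45. From 74 to 80 Mb DOC1 2 had 95 peaks, of which 89 met no other library, against 30 and 32 in DOC1 1 and DOC1 3 and 28, 12 and 20 in the lacZ lists. Here its medians were 46 reads, a fold of 3.20 and a background of 10.9. The excess did not end at the limit of the segment: from 54 to 60 Mb of the same chromosome DOC1 2 had 21 peaks and each of the other 5 lists had 0.

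**Figure D5:**
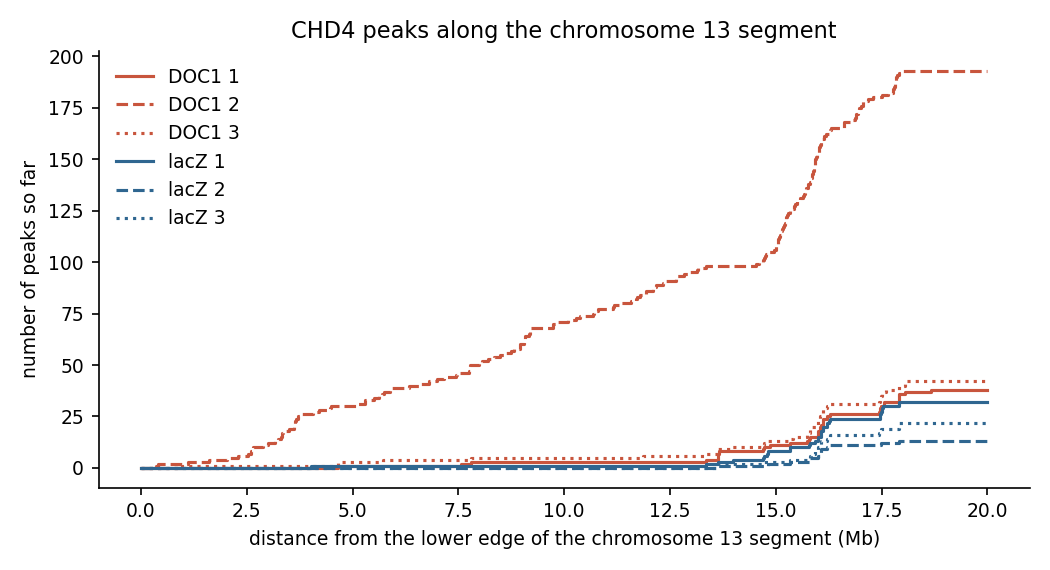
Running number of CHD4 peaks along the chromosome 13 segment (distance from its lower edge, Mb), 1 line per library. DOC1 2 climbs to 193 peaks over nearly the whole length, and the other 5 lines stay low until the high-background block and end between 13 and 42.

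Such an excess of DOC1 2 was also found in other places. Ranked by its share of peaks minus the mean share of the other 5 lists, 75 to 80 Mb of chromosome 13 came first among 5 Mb windows, with 2.12 percentage points. The second was 85 to 90 Mb of chromosome 3, with 1.45 points, where DOC1 2 had 51 peaks, against 4 or fewer in each other list. The 3 remaining windows of the chromosome 13 segment ranked 3, 6 and 8. Windows of chromosomes 5, 6 and 8 ranked 4, 5 and 7 among the same list.

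The members differed by segment in how many libraries held them. On chromosome 9, 46, 24, 6, 15, 15 and 23 members had a peak in 1, 2, 3, 4, 5 and 6 libraries. For chromosome 13, the numbers were 211, 11, 8, 7, 4 and 5. Members in 1 library alone thus made up 35.7% of the chromosome 9 segment and 85.8% of the chromosome 13 segment, against 56.2% of all 18808 regions. Of the 211 lone members on chromosome 13, 186 were of DOC1 2, 7 of DOC1 1, 9 of DOC1 3, 8 of lacZ 1 and 1 of lacZ 3. Of the 46 on chromosome 9, 26 were of DOC1 2, 3 of DOC1 1, 12 of DOC1 3, 2 of lacZ 1 and 3 of lacZ 3. Members in all 6 libraries were 23 on chromosome 9 (17.8%) and 5 on chromosome 13 (2.03%), against 2.75% of all regions.

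The high-background members were the more widely held ones. Of the 115 high members on chromosome 9, 77 were held by at least 2 libraries and 23 by all 6, while 6 of the 14 low members were held by at least 2 and none by all 6. Of the 123 high members on chromosome 13, 95 were held by 1 library, 86 of them by DOC1 2, and 28 by at least 2. Of the 123 low members there, 116 were held by 1 library, 100 of them by DOC1 2, and none by all 6. The 1 Mb from 35 to 36 Mb of chromosome 9 held 77 regions, the most of 2365 windows with a region, whose median was 5, and the 1 Mb from 75 to 76 Mb of chromosome 13 held 54 and ranked 5. Without DOC1 2 the chromosome 9 window still ranked 1 with 62 regions, while the chromosome 13 window held 11 and ranked 469 of 2108.

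Few regions separated the groups, among the members as among all regions. Only 1 member, on chromosome 9, had a peak in every DOC1 library and in no lacZ library (0.775% of the segment), against 0.978% of all regions. None of the 246 members on chromosome 13 did. In the other direction 1 member, on chromosome 13, had a peak in every lacZ library and in no DOC1 library (0.407% of the segment), against 1.18% of all regions. Without DOC1 2, 16 members on chromosome 9 and 8 on chromosome 13 were in both remaining DOC1 libraries and in no lacZ library. These were 15.5% of 103 and 13.3% of 60 regions, close to the 12.0% of all 16719 regions that had a peak in one of those 5 libraries. Most peaks of the chromosome 9 segment were held across groups: 75.6%, 51.8% and 68.9% of the regions of DOC1 1 to 3 also had a peak in a lacZ library, and 93.8%, 100% and 91.5% of those of lacZ 1 to 3 had one in a DOC1 library. For chromosome 13, the shares were 58.3%, 3.63% and 58.5% in the DOC1 lists and 65.6%, 91.7% and 80.95% in the lacZ lists. In the rest of the genome they were 43.9%, 29.9% and 43.4% in the DOC1 lists and 66.7%, 79.6% and 69.2% in the lacZ lists.

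Single members show what these ratios look like. They are named by position, since no gene annotation of the hg19 build was used here. The most widely held and best ranked member on chromosome 9 was chr9:36102333-36103357, with peaks in all 6 libraries. It had 120, 108 and 277 reads at the summit in DOC1 1 to 3 and 354, 259 and 234 in lacZ 1 to 3. Its background was 18.7 to 19.96 times the floor in all 6, and its fold was 6.80, 4.27 and 5.39 in the DOC1 lists and 6.86, 8.002 and 9.11 in the lacZ lists. The highest fold of the DOC1 lists lay just under the lowest of the lacZ lists.

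A second member, chr9:36165828-36167042, had folds of 6.71, 4.16 and 5.57 in DOC1 1 to 3 and of 5.51, 5.47 and 5.37 in lacZ 1 to 3. Here the lacZ lists were close together and lay within the range of the DOC1 lists. At chr9:35904379-35906486 the folds were 6.13, 3.401 and 4.19 in the DOC1 lists and 4.38, 3.69 and 4.86 in the lacZ lists. At chr9:35914164-35915050 they were 5.94, 3.03 and 4.07 in the DOC1 lists and 3.62, 4.76 and 2.46 in the lacZ lists. The fold of 2.46 in lacZ 3 went with a background of 50.2 times the floor, the highest of any member, while lacZ 1 and lacZ 2 had 28.7 and 21.1 at this place. At chr9:35732102-35732999 the folds were 5.47, 2.95 and 4.86 in the DOC1 lists and 3.00, 3.19 and 4.31 in the lacZ lists. In each of these 4 members the groups overlapped, and DOC1 2 had the lowest fold of the DOC1 lists.

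The highest background among members in at least 2 libraries was that of chr9:35510406-35512420, at 32.4, 38.5 and 37.9 times the floor in DOC1 1 to 3 and 34.6, 33.5 and 35.1 in lacZ 1 to 3. All 6 libraries had a peak there, with folds of 4.79, 2.37 and 2.98 in the DOC1 lists and 2.98, 3.25 and 3.11 in the lacZ lists. Reads at its summit numbered 142, 120 and 306 in the DOC1 lists and 261, 173 and 137 in the lacZ lists. Nearby, chr9:35656991-35658255 had a background of 30.01, 30.5 and 33.3 in the DOC1 lists and 36.3, 36.4 and 38.1 in the lacZ lists, with folds of 5.05, 3.88 and 3.84 in DOC1 and 3.82, 3.71 and 4.03 in lacZ. The background of chr9:35727774-35729013 was 25.3, 31.2 and 29.9 in the DOC1 lists and 37.1, 37.3 and 38.1 in the lacZ lists, with folds of 4.72, 2.38 and 3.25 in DOC1 and 2.28, 2.02 and 2.35 in lacZ. At both of these members the DOC1 lists lay below the lacZ lists in background, but lists of a group may share a control and do not count as replicates of it.

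At chr9:35757251-35757576 a background of 34.7 in DOC1 1 and 34.6 in DOC1 3 left folds of 1.97 and 1.86, although 62 and 174 reads stood at the summit. The other 4 lists had no peak there. The lowest fold of the chromosome 9 segment was between 1.79 and 2.27 in the 6 lists. In the rest of the genome the lowest fold was 1.28 in DOC1 1, below the 1.97 of the segment in that list. It was 2.07 to 2.81 in the other lists. The member in every DOC1 library and in no lacZ library was chr9:35882253-35882669. Its folds were 3.67, 2.41 and 2.33 in DOC1 1 to 3, at a background of 21.95 to 22.5 times the floor.

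On chromosome 13 the strongest member was chr13:76290882-76291698, at folds of 12.5, 9.34 and 10.6 in DOC1 1 to 3 and 10.1, 11.7 and 13.2 in lacZ 1 to 3. Its summit held 83, 84 and 193 reads in the DOC1 lists and 253, 185 and 166 in the lacZ lists. The background was 6.398, 6.23 and 6.23 times the floor in the DOC1 lists and 9.30 in each lacZ list. Lists of a group may share a control, so these values do not count as replicates. It had the highest fold of the segment in 6 of 6 lists.

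The other members in all 6 libraries on chromosome 13 were weaker. At chr13:75341036-75341643 the folds were 5.84, 2.98 and 3.86 in the DOC1 lists and 4.28, 3.44 and 4.36 in the lacZ lists. At chr13:75800158-75802137 they were 3.83, 2.45 and 3.13 in the DOC1 lists and 4.54, 3.77 and 5.31 in the lacZ lists. The member with the highest background of the segment was chr13:76055446-76057094, at 23.7, 23.3 and 23.3 times the floor in the DOC1 lists and 30.4, 30.6 and 32.1 in the lacZ lists. Its folds were 4.84, 2.72 and 4.11 in the DOC1 lists and 3.47, 3.00 and 2.92 in the lacZ lists. Near the upper end of the block, chr13:77903143-77904211 had folds of 8.06, 3.84 and 5.74 in the DOC1 lists and of 4.39, 4.11 and 3.77 in the lacZ lists. In the folds of each of these 4 members the groups overlapped, and DOC1 2 was again the lowest of the DOC1 lists.

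A few further members complete those chosen by rank on chromosome 13. A peak at chr13:76066473-76066875 was listed in every library but DOC1 2, with folds of 3.58 and 2.73 in DOC1 1 and DOC1 3 and of 4.71, 4.94 and 5.77 in lacZ 1 to 3. At chr13:75993126-75993553, also without DOC1 2, the background was 24.5 and 25.3 in DOC1 1 and DOC1 3 and 18.6, 17.2 and 19.1 in the lacZ lists. At chr13:75793789-75794262 it was 17.4 and 23.9 in DOC1 1 and DOC1 3 and 18.6 and 21.1 in lacZ 1 and lacZ 3, the only lists with a peak there. The member in every lacZ library and in no DOC1 library was chr13:76063584-76064329, with folds of 2.80, 2.80 and 3.50 in lacZ 1 to 3 at a background of 14.3, 12.4 and 12.04.

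The limits that defined the segments were positions and did not mark steps in background. Next to the chromosome 9 limits, the nearest regions below 35 Mb, at 34994386 and 34995148, had 8.65 and 8.36 times the floor, and the first members, at 35000995 and 35018047, had 4.31 and 5.81. The last members on chromosome 9, at 38047698 and 38672521, had 1.90 and 1.00, and the next regions, at 66458112 and 68417582, had 3.24 and 34.9. On chromosome 13 the last regions below 60 Mb, at 58527776 and 58658087, had 1.56 and 1.31, and the first members, at 60360379 and 60410658, had 1.38 and 1.83. Above 80 Mb the next regions, at 80510549 and 81043939, had 1.13 and 1.00.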

How the data were processed

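The 6 CHD4 ChIP-seq libraries were grouped by their titles into DOC1 (3) and lacZ (3). Per the submitters' processing notes, Trimmomatic 0.33, BWA 0.7.12-r1039, SAMtools 1.2 and MACS2 2.1.1.20160309 were used, with hg19 (GRCh37). Which control and settings the peak caller had is not stated in the labels. The deposited peak lists, 1 per library and not pooled, hold for each peak a score, a fold enrichment (a ratio), −log10 values of a p-value and a q-value, and the summit position. The lowest −log10 q-value in the deposited lists was 2.01 to 2.05, and the deposited score was the whole part of 10 times it for 100% of peaks.

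From these, the reads at each summit and the control background were solved together, taking the fold as the pileup plus 1 over the background plus 1 and the p-value as a Poisson tail, as MACS2 is known to compute them. A solution needed a whole number of reads (times 1 factor per list) within 0.002 reads. The solver and the merging of peaks were tested on simulated data. The solved backgrounds corresponded to whole control reads for 100% of peaks, within 0.05 reads in 10 kb. Peaks overlapping by at least 1 bp were merged, and a peak belongs to a segment by its start. Regions of the text are, for each segment, the 6 in the most libraries (ties by rank of the p-value), the 4 of highest median background among those in at least 2 libraries, and every region in all libraries of 1 group and none of the other. The members and these lists were chosen with earlier results of these data known. Shares of peaks per library were compared by two-sided exact permutation tests over 20 assignments. The adjustment (Benjamini-Hochberg) is over 6 computed tests, of which those of fold and reads are not quoted, since they rest on the columns that chose the segments. Single peaks carry no replicate error, and the peak caller's statistics describe each peak within its own list. PCR reads without molecular identifiers are not independent molecules. Computing used scipy 1.17.1, statsmodels 0.14.6, pandas 2.3.3, numpy 2.4.6 and matplotlib 3.10.9 in Python 3.11.15. Alternatives were a stricter threshold (−log10 q-value of at least 3), lists of equal length (2812 peaks), other segment limits, other merging, the summit as position, leaving out each library, a replicate block, and, added after seeing the data, peaks with a background of at least 5 times the floor only, and counts of high-background regions without DOC1 2.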

Additional observations from a re-analysis of the deposited data

How the results depend on the processing

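Depth limits the lists: weak sites can pass in 1 library and miss in the next, and background is known only where a peak was called. The causes of the changes below were not tested, beyond fewer peaks or libraries. The fold difference inside over outside kept its sign under each alternative run: leaving out 1 library gave 0.30 to 0.34 on chromosome 13 and 0.12 to 0.23 on chromosome 9. The difference in reads on chromosome 13 was -0.46 to -0.22 without 1 library, but 0.10 with peaks of at least 5 times the floor only; on chromosome 9 it was 0.039 to 0.145. The share of peaks on chromosome 13 differed by -0.028 (without DOC1 2) to 2.58 points without 1 library. On chromosome 9 it differed by -0.337 to 0.126 points without 1 library, with 0.0175 without DOC1 1, 0.126 without DOC1 3, 0.0378 without lacZ 2 and 0.000344 without lacZ 3, and by 0.45 points in lists of equal length. The number of members was 163 (without DOC1 2) to 375 without 1 library, and 295 to 410 under the other alternatives (410 by summits). Members held by all DOC1 libraries and none of lacZ were 3 in lists of equal length, 2 by summits, 0 in segments trimmed by 1 Mb and 1 to 24 without 1 library (24 without DOC1 2, 3 without lacZ 1). The opposite members numbered 1 to 5 (5 without lacZ 2). Without DOC1 2, 12.0% of all 16719 regions were in both other DOC1 libraries and in no lacZ library. The share over all regions was not computed under the other settings, so those counts cannot be read as a trait of the members. Background inside over outside, in regions of 1 library alone, was 5.92 (DOC1) and 4.56 (lacZ) on chromosome 9, over few peaks (3, 26 and 12 in DOC1 1 to 3 at 0.633, 10.5 and 6.63, and 2 and 3 in lacZ 1 and lacZ 3 at 2.28 and 6.85), and 2.25 (DOC1) and 3.58 (lacZ) on chromosome 13. Against the rest of the same chromosome it was 11.9 (lacZ, chromosome 9), 3.93 (DOC1, chromosome 13) and 6.37 (lacZ, chromosome 13), and with trimmed segments 7.38 (DOC1) and 8.58 (lacZ) on chromosome 9. Same-numbered libraries did not deviate together in which regions had a peak (correlations of 0.006, 0.031 and -0.019 over 18808 regions). Presence of a peak also depends on depth, so this cannot show whether the numbers pair the libraries. With the number as a replicate block, exact sign-flip p-values were 0.75 for the chromosome 13 share and 1 for the chromosome 9 share, with 0.25 the smallest that 3 pairs allow. The differences themselves are the same in the replicate block, at 1.69 and -0.065 points for the shares, 0.32 and 0.18 for fold and -0.36 and 0.10 for reads.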
